A study of Arabidopsis thaliana with 6 samples.

Results

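The genes described here encode the chloroplast NADH dehydrogenase-like (NDH) complex and its partners in cyclic electron flow around photosystem I. They were taken by locus from a fixed list of 31 nuclear genes: subunits NdhL to NdhO and NdhS to NdhU, the photosynthetic NDH subunits of subcomplex B (PnsB1 to PnsB5) and of the lumen subcomplex (PnsL1 to PnsL5), LHCA5 and LHCA6, the CRR assembly factors, PGR5, PGRL1A, PGRL1B, PIFI, FNR1, FNR2 and PTOX. Of these, 30 were among the 26402 genes of the deposited table and 29 had a mean of at least 1 RPKM, as had 16563 genes in all. CRR6 was not analysed here, and NdhL was listed at 0 in both columns.

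RNA came from whole leaves of wild-type Arabidopsis thaliana Columbia-0, 4 weeks old, grown at 100 ppm CO2 (low CO2, 3 samples) or at 380 ppm CO2 (normal CO2, 3 samples). All plants had 16 h of light and 8 h of dark, 21 °C and 70% relative humidity, and wild type was the sole genotype. RPKM are reads scaled to length and library size. For 96.4% of genes above 0, a reference coding length less the stop codon gave whole reads. The table held RPKM in 1 column per CO2 level. The differences below therefore lack replicates, and the effect of CO2 could not be tested. In bulk leaf RNA, fewer cells of a type and less RNA per cell cannot be told apart.

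Cyclic electron flow returns electrons from photosystem I to the plastoquinone pool, which adds to the proton gradient for ATP synthesis without net NADPH. In flowering plants it runs along 2 routes: one through the NDH complex, a relative of respiratory complex I that takes electrons from ferredoxin, and one that depends on the proteins PGR5 and PGRL1. The NDH complex is built from plastid-encoded and nuclear-encoded subunits, binds photosystem I through the minor antenna proteins LHCA5 and LHCA6, and needs dedicated assembly factors. Mutants that lack it were found as chlororespiratory reduction (crr) lines.

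As a group the genes stood higher at low CO2. Of the 29 counted genes 25 (86.2%) had a log2 ratio above 0, against 45.6% of all counted genes, and 6 (20.7%) were at least 2-fold higher, against 6.07%. None was at least 2-fold lower, against 11.1% of all counted genes. At a rule of 1.5-fold, 14 genes (48.3%) were higher, against 13.5% of all counted genes. The median log2 ratio of the group was 0.57, and that of all counted genes was -0.06. These ratios are log2((low + 1)/(normal + 1)) of RPKM. The 6 genes were CRR1, PnsB3, FNR2, LHCA6, PnsB5 and PnsL1, and they came from subcomplex B, the lumen subcomplex, the photosystem I linkers, the assembly factors and the ferredoxin NADP reductases. The shares among genes of similar level were close to those of all genes: of 8628 genes between the lowest and the highest member mean, 6.65% were higher by 2-fold or more and 14.1% by 1.5-fold or more, 10.6% were lower by 2-fold or more, and 45.6% had a log2 ratio above 0.

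Because several of these genes differed together, the bases before their start sites are shown for PnsB3, PnsB5 and FNR2. These were at least 2-fold higher, and their 250 bases upstream hold no annotated exon and at least 1 of the 8 motifs searched for. The window of CRR1 holds no exon and none of the motifs. The windows of LHCA6 and PnsL1 reach into exons of neighbouring genes. The sequences were read from the RefSeq assembly TAIR10.1 with its own annotation (PnsB3 chr3:5508415-5508664, minus strand; PnsB5 chr5:17581276-17581525, minus strand; FNR2 chr1:6942375-6942624, plus strand). Capitals mark the motifs searched for, on either strand.
PnsB3: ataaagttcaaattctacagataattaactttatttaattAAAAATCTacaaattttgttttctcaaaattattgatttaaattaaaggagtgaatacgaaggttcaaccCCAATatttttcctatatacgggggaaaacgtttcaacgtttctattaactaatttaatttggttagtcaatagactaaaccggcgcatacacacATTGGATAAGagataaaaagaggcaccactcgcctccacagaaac
PnsB5: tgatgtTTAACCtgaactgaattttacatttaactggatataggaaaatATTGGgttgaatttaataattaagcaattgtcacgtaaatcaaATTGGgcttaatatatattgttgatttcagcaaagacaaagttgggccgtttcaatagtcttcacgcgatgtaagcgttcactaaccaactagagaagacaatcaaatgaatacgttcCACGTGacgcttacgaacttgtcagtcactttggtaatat
FNR2: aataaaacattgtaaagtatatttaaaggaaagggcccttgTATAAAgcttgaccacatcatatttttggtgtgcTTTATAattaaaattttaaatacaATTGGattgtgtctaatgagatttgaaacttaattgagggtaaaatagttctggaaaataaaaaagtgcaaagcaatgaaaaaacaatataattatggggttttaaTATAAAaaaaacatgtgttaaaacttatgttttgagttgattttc

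The PnsB3 window holds a CCA1 binding site (AAAAATCT) that begins 210 bases before the start and a CCAAT box (CCAAT) at 140 bases. It also holds an I-box (GATAAG) at 41 bases, whose first letter is also the last of a reversed CCAAT box. That of PnsB5 holds a G-box (CACGTG) at 40 bases and a reversed GT1 box core (GGTTAA) at 244 bases. Reversed CCAAT boxes lie in it at 201 and 158 bases. That of FNR2 holds TATA boxes (TATAAA) at 209, 175 (reversed) and 45 bases and a reversed CCAAT box at 151 bases. Over all windows of the 30 genes in the table, the G-box stood in 2 (6.67%) against 6.59% of 25787 promoters, the CCA1 binding site in 3 against 6.79%, and the I-box in 5 (16.7%) against 12.2%. The evening element (AAAATATCT) stood in 1 window, that of LHCA5, against 2.43% of promoters. The GT1 box core was in 6 windows against 14.6% of promoters, the TATA box in 11 (36.7%) against 47.9%, the CCAAT box in 15 against 46.2%, and the TCP site (GGGCCCA) in 1 against 1.59%. No motif was shared by more than 15 of the 30 windows, and a match describes letters, not a bound factor.

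Levels spanned 27.1 to 1100.2 RPKM at low CO2 and 8.53 to 634 RPKM at normal CO2. FNR1 had the highest value and CRR1 the lowest in either column. The ferredoxin NADP reductases, PGR5, PGRL1A and PIFI held the first 5 places in both columns, above every NDH subunit. NDH subunit genes lay between 34.7 and 293 RPKM at low CO2 and between 23.2 and 305 RPKM at normal CO2, with PnsL3 the lowest of them in both.

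**Figure D1:**
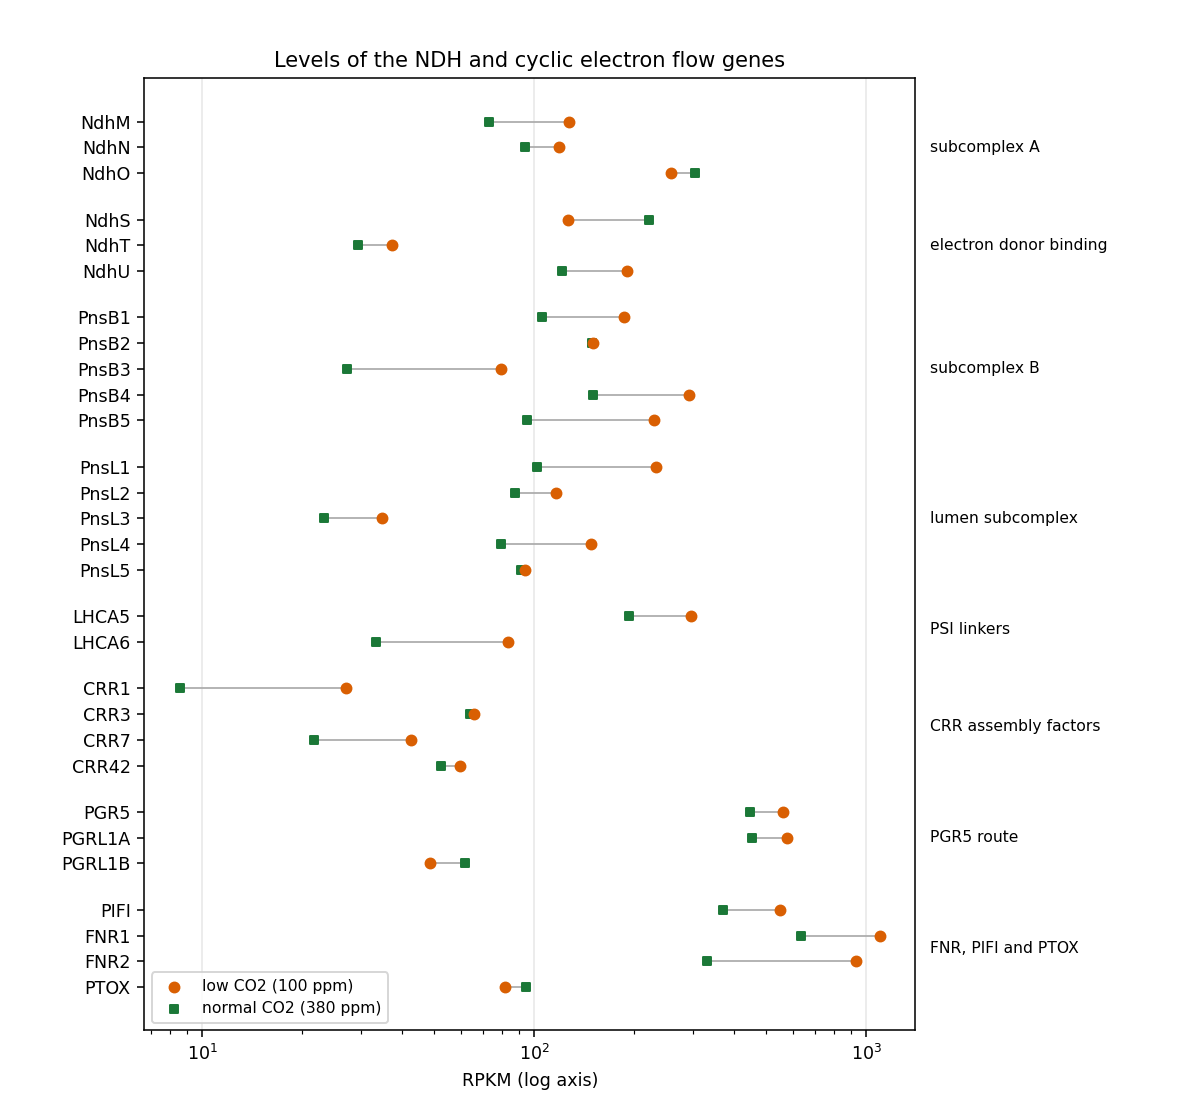
RPKM (log axis) of the 29 counted genes at low CO2 (orange circles) and normal CO2 (green squares), 1 value per column and no replicates, grouped by role. The orange circle lies to the right for 25 genes; NdhO, NdhS, PGRL1B and PTOX are the 4 with the green square to the right.

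Subcomplex A forms the stromal arm that faces the electron donor, together with plastid-encoded subunits, and its nuclear genes went both ways. NdhM (AT4G37925) was at 127.5 RPKM at low CO2 and 72.9 RPKM at normal CO2, a ratio of 1.75 with a 95% counting interval of 1.63 to 1.88. NdhN (AT5G58260) was at 119 RPKM at low CO2 and 93.7 RPKM at normal CO2, a ratio of 1.27 (1.18 to 1.36). NdhO (AT1G74880), the most abundant of this subcomplex at either CO2 level, was at 259 RPKM at low CO2 and 305 RPKM at normal CO2, 1.18-fold lower (1.12 to 1.24). The intervals, here and below, are exact Clopper-Pearson intervals on the reads recovered from the values. They cover counting error only, since reads without molecular identifiers are not independent molecules, and they compare 2 columns, not the conditions.

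NdhL (AT1G70760), a membrane subunit needed for NDH activity, was listed at 0 in both columns, where 3 reads on its coding length would be worth 0.239 RPKM at low CO2 and 0.206 RPKM at normal CO2. All of its coding bases (100%) lie inside exons of other genes on the opposite strand in the reference, AT1G70770 (65.6 RPKM at low CO2 and 63.1 RPKM at normal CO2) and a long noncoding RNA. An exact 0 here does not show that the RNA was absent, and whether the overlap bears on it was not tested.

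NdhS, NdhT and NdhU make up the part of the complex where the electron donor binds. NdhS (AT4G23890), which carries the site for ferredoxin, was the lowest of all 29 genes by ratio: 126.5 RPKM at low CO2 and 222 RPKM at normal CO2, 1.75-fold lower (1.66 to 1.85). NdhU (AT5G21430), a J-domain-like protein, was at 189.9 RPKM at low CO2 and 121 RPKM at normal CO2, a ratio of 1.57 (1.48 to 1.66). NdhT (AT4G09350), also related to J proteins, was at 37.3 RPKM at low CO2 and 29.4 RPKM at normal CO2, a ratio of 1.27 (1.13 to 1.42). The 3 genes therefore differed in opposite directions, and their summed RPKM was nearly level, at 354 at low CO2 and 372 at normal CO2. Of the coding bases of NdhS 53.1% lie inside an exon of an antisense noncoding RNA, and without known strand use the reads of both cannot be told apart.

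Subcomplex B, which has no plastid-encoded subunit, had a median log2 ratio of 0.96, with 2 of 5 genes at least 2-fold higher. PnsB3 (AT3G16250), a ferredoxin-like protein, was at 79.4 RPKM at low CO2 and 27.2 RPKM at normal CO2, 2.92-fold higher (2.61 to 3.28). PnsB5 (AT5G43750) was at 229 RPKM at low CO2 and 95.2 RPKM at normal CO2, 2.41-fold higher (2.27 to 2.56). PnsB4 (AT1G18730), at 293 RPKM at low CO2 and 150.1 RPKM at normal CO2, lay just inside 2-fold with a ratio of 1.95 (1.84 to 2.08).

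The interval of PnsB4 reached past 2-fold, and an antisense RNA covers 35.8% of its coding bases. PnsB1 (AT1G15980) was at 185.7 RPKM at low CO2 and 105 RPKM at normal CO2, a ratio of 1.76 (1.69 to 1.84). PnsB2 (AT1G64770) was level, at 150.02 RPKM at low CO2 and 149 RPKM at normal CO2, a ratio of 1.01 (0.961 to 1.05). Levels within the subcomplex were closer together at low CO2: the highest was 3.70 times the lowest there and 5.52 times the lowest at normal CO2. PnsB3 was the lowest of the 5 in both columns.

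The lumen subcomplex is a set of small proteins on the inner side of the thylakoid, several of them related to proteins of the oxygen-evolving complex or to protein-folding enzymes. PnsL1 (AT2G39470), a PsbP-like protein, was at 232 RPKM at low CO2 and 102 RPKM at normal CO2, 2.28-fold higher (2.16 to 2.41). PnsL4 (AT4G39710), an FK506-binding protein, was at 148 RPKM at low CO2 and 79.5 RPKM at normal CO2, a ratio of 1.86 (1.73 to 2.01). The other 3 were within 1.5-fold.

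PnsL3 (AT3G01440) and PnsL2 (AT1G14150), both PsbQ-like, had ratios of 1.49 (1.30 to 1.71) and 1.33 (1.24 to 1.44). PnsL3 was at 34.7 RPKM at low CO2 and 23.2 RPKM at normal CO2, and PnsL2 at 116 RPKM at low CO2 and 87.2 RPKM at normal CO2. PnsL5 (AT5G13120), the cyclophilin CYP20-2, was level, at 93.8 RPKM at low CO2 and 91.5 RPKM at normal CO2 with a ratio of 1.025 (0.957 to 1.097). All 5 genes of the lumen subcomplex had a log2 ratio above 0, and their median was 0.56. Their summed RPKM was 625 at low CO2 and 383 at normal CO2, a ratio of 1.63.

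LHCA5 and LHCA6 are minor antenna proteins of photosystem I that link it to the NDH complex. LHCA6 (AT1G19150) was at 83.4 RPKM at low CO2 and 33.4 RPKM at normal CO2, 2.50-fold higher (2.28 to 2.74). LHCA5 (AT1G45474) was at 298 RPKM at low CO2 and 193 RPKM at normal CO2, a ratio of 1.54 (1.48 to 1.61). LHCA5 stayed the more abundant of the pair: LHCA6 was at 0.280 times its RPKM at low CO2 (0.264 to 0.297) and 0.173 times at normal CO2 (0.159 to 0.188). Such a quotient within a column does not depend on how the columns were scaled to each other, and both intervals cover counting error only.

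**Figure D2:**
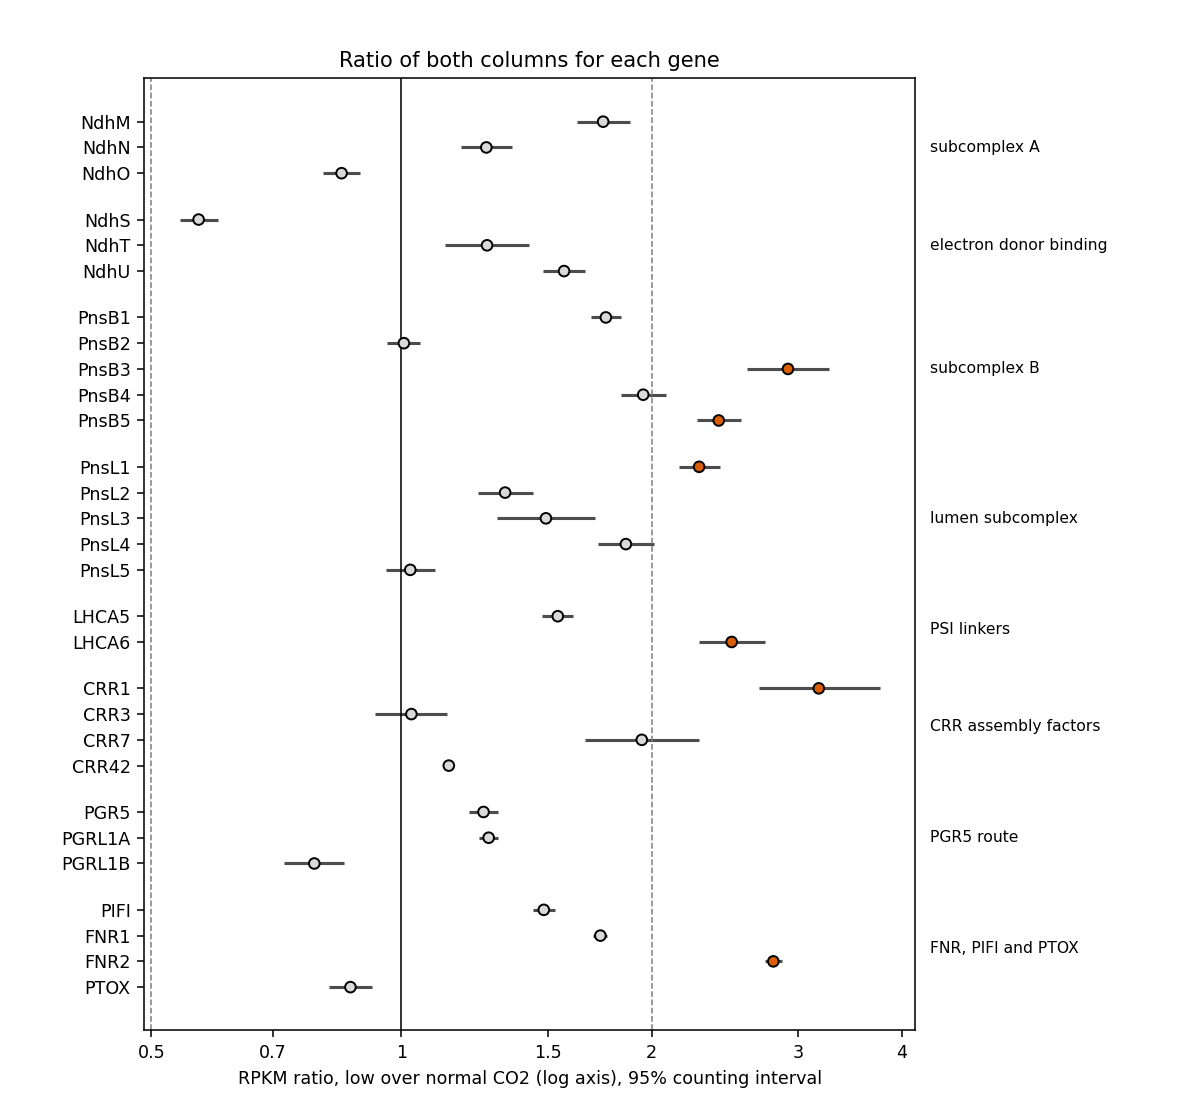
RPKM ratio of low over normal CO2 (log axis) for the 29 counted genes, with bars for 95% counting intervals; dashed lines mark 2-fold either way and orange points the 6 genes at least 2-fold higher. CRR42 has no bar, and NdhS lies farthest to the left at a ratio of 0.570.

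Among the assembly factors CRR1 had the largest ratio of all 29 genes. CRR1 (AT5G52100), a protein related to dihydrodipicolinate reductase that acts in the assembly of subcomplex A, was at 27.1 RPKM at low CO2 and 8.53 RPKM at normal CO2, 3.18-fold higher (2.69 to 3.77), from 531 and 194 reads. CRR7 (AT5G39210) was at 42.4 RPKM at low CO2 and 21.8 RPKM at normal CO2, just inside 2-fold with a ratio of 1.95 (1.67 to 2.28). Of the coding bases of CRR1 59.4% lie inside exons of antisense genes, among them AT5G52110 at 14.4 RPKM at low CO2 and 9.44 RPKM at normal CO2. What the overlap adds to the CRR1 value was not tested.

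CRR3 (AT2G01590) was level, at 65.8 RPKM at low CO2 and 64.0 RPKM at normal CO2, a ratio of 1.03 (0.931 to 1.14). CRR42 (AT5G20935) was at 59.6 RPKM at low CO2 and 52.3 RPKM at normal CO2, a ratio of 1.14 with no interval, because its values gave no whole reads with the reference coding lengths. CRR1 and CRR7 thus stood well above CRR3 and CRR42 in ratio and below them in level.

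The PGR5 route had a median log2 ratio of 0.33, against 0.60 for the NDH subunits, and none of its 3 genes reached 1.5-fold. Within the NDH subunits, subcomplex A had a median of 0.34 and the electron donor binding group one of 0.33. Whether the routes differ was not tested. PGR5 (AT2G05620) was at 561 RPKM at low CO2 and 447 RPKM at normal CO2, a ratio of 1.26 (1.21 to 1.31). PGRL1A (AT4G22890), its membrane partner, was at 578 RPKM at low CO2 and 454 RPKM at normal CO2, a ratio of 1.27 (1.24 to 1.31). PGR5 and PGRL1A stood at nearly the same level per length, with a quotient of PGR5 over PGRL1A of 0.969 (0.937 to 1.00) at low CO2 and 0.983 (0.9495 to 1.018) at normal CO2. PGRL1B (AT4G11960), the second PGRL1 gene, was at 48.5 RPKM at low CO2 and 61.8 RPKM at normal CO2, 1.27-fold lower (1.17 to 1.38).

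The paralogues PGRL1A and PGRL1B thus lay on opposite sides of 1. PGRL1B made up 7.74% of their summed RPKM at low CO2 and 11.97% at normal CO2, and its quotient over PGRL1A was 0.0839 (0.0784 to 0.0896) at low CO2 against 0.136 (0.129 to 0.144) at normal CO2. Their coding sequences are 79.9% identical in an alignment of the reference sequences, with a longest identical run of 38 bases. No stretch of 50 coding bases of any of the 31 genes occurs in the coding sequence of another gene.

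Ferredoxin NADP reductase (FNR) passes electrons from ferredoxin to NADP and occurs in leaves in 2 plastid forms. FNR2 (AT1G20020) was at 931 RPKM at low CO2 and 332 RPKM at normal CO2, 2.80-fold higher (2.74 to 2.87). FNR1 (AT5G66190), which anchors FNR at the thylakoid membrane, was at 1100.2 RPKM at low CO2 and 634 RPKM at normal CO2, a ratio of 1.74 (1.70 to 1.77). Both were higher, by unequal factors, so FNR2 took 45.8% of their summed RPKM at low CO2 and 34.4% at normal CO2. The quotient of FNR2 over FNR1 was 0.846 (0.831 to 0.861) at low CO2 and 0.524 (0.511 to 0.537) at normal CO2. Their coding sequences are 73.5% identical, with a longest identical run of 17 bases.

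PIFI (AT3G15840), named for the rise of chlorophyll fluorescence after illumination that its mutant lacks, was at 550.3 RPKM at low CO2 and 371 RPKM at normal CO2, a ratio of 1.48 (1.44 to 1.53). PTOX (AT4G22260), the plastid terminal oxidase that passes electrons from plastoquinol to oxygen and whose mutant is immutans, was at 81.7 RPKM at low CO2 and 94.1 RPKM at normal CO2, 1.15-fold lower (1.08 to 1.22). Of the 28 genes with recovered reads, PTOX, NdhO, NdhS and PGRL1B were the 4 with an interval wholly below 1, as had 40.2% of the 16095 counted genes with recovered reads. The interval lay wholly above 1 for 21 genes, against 31.9% of those 16095, and spanned 1 for 3 genes. At these depths most of those 16095 genes thus had an interval that excluded 1. The interval lay wholly above 2 for 6 of the 28 genes, against 5.05% of the 16095. They are the same 6 genes named as at least 2-fold higher, so this adds no separate support.

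**Figure D3:**
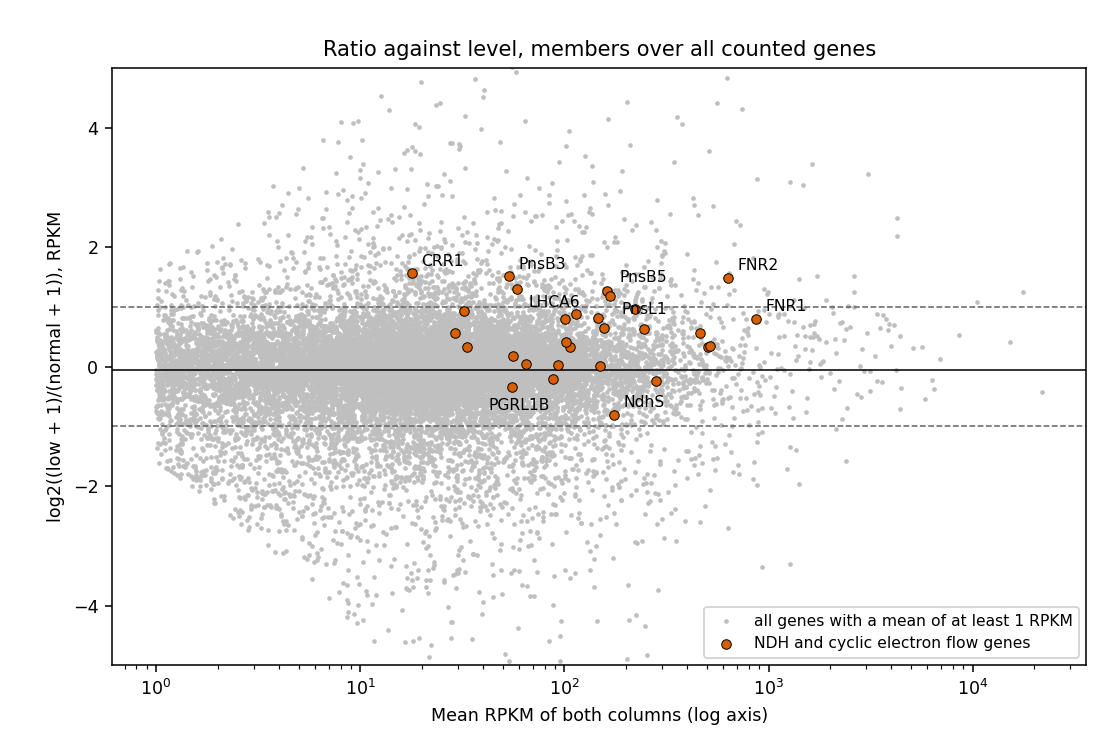
log2 ratio of low over normal CO2 (RPKM + 1) against the mean RPKM of both columns (log axis) for all 16563 counted genes (grey) and the 29 NDH and cyclic electron flow genes (orange); dashed lines mark 2-fold, the solid line the median of all genes, and 18 genes lie beyond the plotted range. The orange points lie mostly above the median line, at middle to high levels.

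Further genes of the pathway were set beside the group. Among 9 counted of 13 further nuclear factors for expression and assembly of the NDH complex, none reached 2-fold in either direction. For as few as 9 genes this is close to those shares. The median log2 ratio of these 9 factors was 0.37. The most abundant of them were AT5G52780, at 65.4 RPKM at low CO2 and 45.6 RPKM at normal CO2, and NDF5, at 28.6 RPKM at low CO2 and 20.2 RPKM at normal CO2. Of the 13 factors 12 were in the deposited table, and 3 of these lay below a mean of 1 RPKM. Many of this list are RNA-editing and RNA-processing proteins of low level.

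Genes of photosystem I and its main antenna had a median log2 ratio of 0.62 over 15 genes, and the 16 counted NDH subunits one of 0.60. After quantile normalization these medians were farther apart, at 0.34 for photosystem I and 0.69 for the NDH subunits. Of those 15 genes 2 reached 2-fold, PSAK at 2.02-fold (1.98 to 2.06) and PSAG at 2.00-fold (1.97 to 2.04), and none was lower by that factor. The summed RPKM of the NDH subunits was 5.46% of that of the photosystem I genes at low CO2 and 5.66% at normal CO2, and the summed RPKM of the PGR5 route 2.68% at low CO2 and 3.11% at normal CO2.

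Electron carriers and FNR tethers had a median log2 ratio of 0.83 over 7 genes, or 0.58 after quantile normalization. PETE2, the major plastocyanin gene, was the one at least 2-fold higher, at 3682 RPKM at low CO2 and 1548 RPKM at normal CO2 (2.38-fold, 2.34 to 2.42). Photosystem II relatives of the lumen genes and root-type FNR genes had a median of 0.79 over 6 genes. Of these PPL1 (241 RPKM at low CO2 and 98.3 RPKM at normal CO2) and PSBQ1 (1395.5 RPKM at low CO2 and 586 RPKM at normal CO2) were at least 2-fold higher, by 2.45-fold (2.32 to 2.60) and 2.38-fold (2.32 to 2.44). PPL1 is a PsbP-like relative of PnsL1 that serves photosystem II repair, and its coding sequence is 51.4% identical to that of PnsL1.

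**Figure D4:**
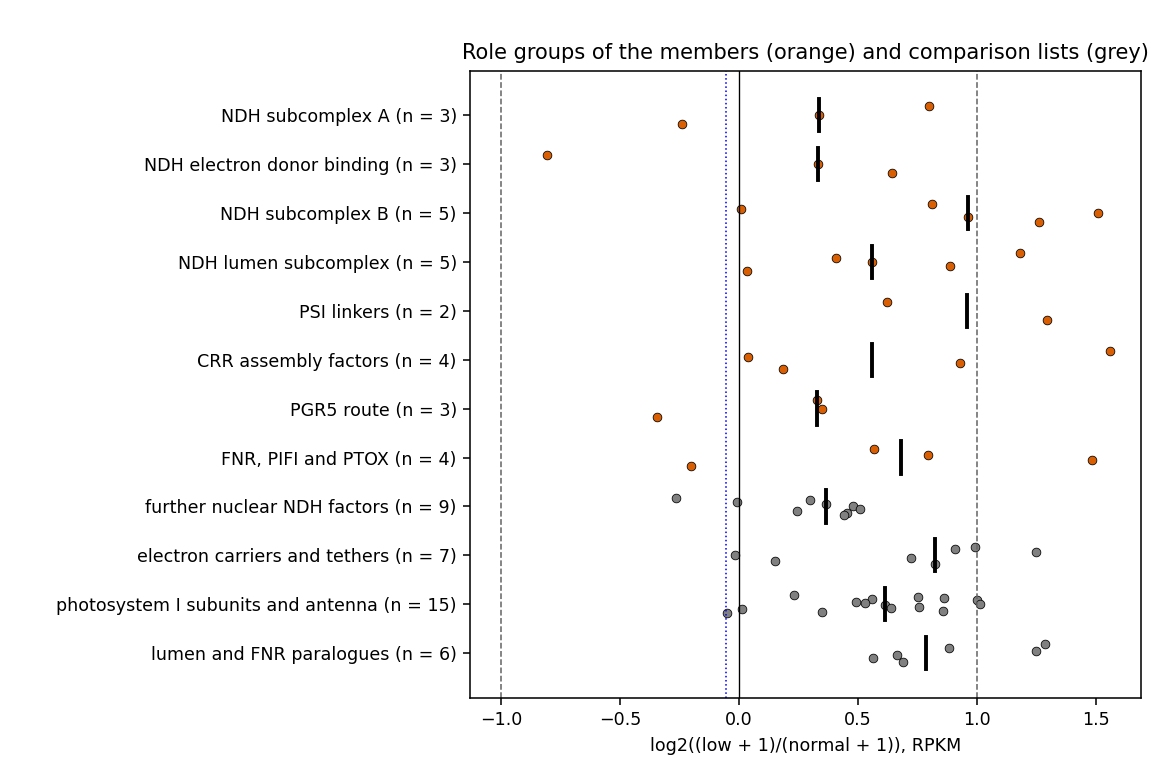
log2 ratio of low over normal CO2 (RPKM + 1) by role group of the NDH and cyclic electron flow genes (orange) and for 4 comparison lists (grey), 1 point per counted gene, with black bars for medians, dashed lines at 2-fold and a dotted line at the median of all genes. Subcomplex B and the photosystem I linkers have the highest medians of the role groups, both 0.96. The PGR5 route and the electron donor binding group have the lowest, both 0.33, closely followed by subcomplex A at 0.34.

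Other leaf signals differed between the columns beside these genes. Of 10 circadian clock genes 5 were higher and 1 lower by 2-fold or more, with log2 ratios between -2.09 and 4.42. PRR5 was at 48.0 RPKM at low CO2 and 1.30 RPKM at normal CO2, and PRR9 at 0.781 RPKM at low CO2 and 6.58 RPKM at normal CO2. The evening complex genes ELF4, LUX and ELF3 had ratios of 11.8 (8.62 to 16.6), 9.24 (6.74 to 12.95) and 4.39 (3.96 to 4.88), and TOC1 one of 3.93 (3.59 to 4.31). CCA1 and LHY, which are expressed around dawn, had ratios of 1.42 and 0.880. PRR7 and GI were lower, by 1.43-fold (1.37 to 1.49) and 1.72-fold (1.51 to 1.97). The labels used here give no time of day for the collection, and the part of the clock in the differences above was not tested. Of 3 mesophyll markers 2 were at least 2-fold higher, RBCS1A (2.39-fold) and CA1 (8.6025-fold), and LHCB1.1 had a ratio of 1.55 (1.53 to 1.57). The 3 summed to 30189 RPKM at low CO2 and 12613 RPKM at normal CO2. RBCS1A made up most of both sums, at 24998.5 RPKM at low CO2 and 10462.5 RPKM at normal CO2. Guard cell markers summed to 98.6 RPKM at low CO2 and 74.3 RPKM at normal CO2 with none of 3 at 2-fold, and the most abundant of them, MYB60 and FAMA, had ratios of 1.66 (1.48 to 1.88) and 1.0995 (0.991 to 1.22). Phloem markers summed to 1042 RPKM at low CO2 and 771 RPKM at normal CO2 and went both ways. Of these 3, SWEET11 was at least 2-fold higher (2.11-fold), at 636 RPKM at low CO2 and 301 RPKM at normal CO2. SUC2 was at 374 RPKM at low CO2 and 440 RPKM at normal CO2, 1.18-fold lower (1.15 to 1.20), and APL had a ratio of 1.06 (0.958 to 1.17). Epidermis markers summed to 66.0 RPKM at low CO2 and 112 RPKM at normal CO2 and went both ways. CER5, which makes up most of that sum, was at 44.5 RPKM at low CO2 and 89.6 RPKM at normal CO2, 2.01-fold lower by plain RPKM (1.91 to 2.12) and just inside 2-fold with the pseudocount, and ATML1 was 1.20-fold lower. PDF1 was 3.53-fold higher (2.20 to 5.86), from 73 reads at low CO2 and 24 at normal CO2. None of these 12 markers was at 0, and their part in the results was not tested.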

How the data were processed

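RNA sequencing of whole leaves was deposited as 1 table of RPKM values made by the authors, with 1 column per CO2 level for 3 samples each. Per the submitters' processing notes FastQC, TopHat and Cufflinks were used. Versions, genome build, annotation, strand use and pooling are not given in the sources used here. Per the labels' protocols libraries were made with a TruSeq RNA kit.

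Whole reads were recovered from the RPKM with reference coding lengths less the stop codon (tolerance 0.0001 reads) for 20247 of 21010 genes above 0 (96.4%), at depths of 21887516 reads at low CO2 and 25429325 at normal CO2, where 3 reads on 1 kb are worth 0.137 and 0.118 RPKM. Of the counted genes described, 28 had recovered reads, 434 to 26008 per gene at low CO2 and 194 to 17409 at normal CO2. Ratios use a pseudocount of 1 RPKM on the log2 scale, a minimum mean level of 1 RPKM for a gene to be counted and, on that scale, a size rule of 2-fold. Plain RPKM ratios carry 95% Clopper-Pearson intervals. With single columns, the limma test that replicate columns would have allowed could not be run.

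All 31 genes are named, and of the comparison and marker lists those at 2-fold, otherwise the 2 most abundant. CCA1, LHY, PRR7, GI, LHCB1.1, CER5, ATML1, SUC2 and APL were named after their values were seen. Genes and lists were chosen with earlier results of these data known. Names, promoters and overlaps come from the RefSeq annotation of TAIR10.1, matched by locus for all 30 genes in the table. Since the authors' build is not given, its coordinates belong to the printed sequences only. Plastid loci are not paired with names there and are not used here. Scripts ran in Python 3.11.15 with SciPy 1.17.1 and Biopython 1.88 and were tested on simulated data.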

Additional observations from a re-analysis of the deposited data

How the results depend on the processing

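No paired analysis was possible because the deposited table has no columns for replicates, so leaving out replicates and the limma fit were not run either. The number of NDH and cyclic electron flow genes at least 2-fold higher (6) was between 5 and 7 with pseudocounts of 0.1 and 5, after median scaling, quantile normalization and after removing trends with GC content and coding length, and, chosen after seeing the data, without the genes overlapped by others over 10% or more of their coding bases. The settings without a filter and with a mean of at least 5 RPKM could not change the call of any of the 29 counted genes, all of which lie above that level. CRR1 is left out in the setting without overlapped genes. PnsB4 joined after median scaling and after trend removal, and CRR7 after quantile normalization. With a rule of 1.5-fold, 14 genes were higher and 1 lower (NdhS), against 2244 and 3312 of all genes, and with a pseudocount of 5 the count of all genes 2-fold lower was 1175. The group median ranged from 0.56 to 0.65, while that of all genes was -0.06 as reported and 0.05 after quantile normalization. Medians moved outside their counting intervals for FNR, PIFI and PTOX (0.74 after median scaling), for photosystem I genes (0.67 after median scaling, 0.34 after quantile normalization, 0.64 after trend removal), for electron carriers (0.58 after quantile normalization) and for clock genes (1.07 with a pseudocount of 5, 1.90 with a mean of at least 5 RPKM, 1.26 after median scaling, 1.28 after quantile normalization, 1.27 after trend removal). These intervals of medians come from the counting intervals of single genes and do not measure the spread within a group. Median scaling shifts every log2 ratio by the same amount. The minimum mean of 5 RPKM leaves PRR9 out of the clock genes. The cause of the other shifts was not tested. Of 140 single-gene values, for 28 genes with an interval under the 5 settings that could move them, 128 lay within the counting interval, and none changed sign. The intervals of PnsB4, PnsL4 and CRR7 span 2-fold, so read number leaves their side of the rule unsettled, and the spread between replicates was not measured.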
